A study of Mus musculus with 4 samples.

Results

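In the list of promoter regions deposited with a single-nucleus ATAC-seq study of the mouse mammary gland, some regions were written on more than 1 line. The list held 21179 lines and 19204 distinct regions, each 1000 bases wide. On the autosomes, 1872 of 18638 distinct regions (10.0%, exact Clopper-Pearson 95% interval 9.62 to 10.5) occurred on 2 or more lines, and these repeated regions are described here against the 16766 autosomal regions on 1 line. Of the 1872, 1820 stood on 2 lines, 48 on 3 and 4 on 4 lines. A further 44 repeated regions lay on the X chromosome and were not used. The rule uses the number of lines alone, and no reads or scores.

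All animals were CD1 mice, described in the labels as WT. Mammary epithelial cells positive for EpCAM, a surface protein of epithelial cells, and negative for lineage markers (Lin-) were sorted from fetuses at embryonic day 18 (E18) and from adults at 8 weeks, with 2 libraries per stage that the labels call biological replicates. Nuclei came from thawed cells, tagged in 16 wells for fetal and 32 for adult libraries. The labels do not say whether animals were pooled and give no collection date, so stage and any batch that differs with it cannot be told apart. The authors kept 882 and 1695 nuclei in fetal libraries 1 and 2, and 2465 and 2804 in adult libraries 1 and 2, with between 6028168 and 19304830 reads per library, and no barcode was shared between libraries. The authors' deposited classes, numbered 1 to 14, carry no names. Reads over the basal marker genes were highest in class 1 (1211 reads per 1000000 reads of the kept nuclei, rpm) and class 8 (942 rpm), luminal progenitor markers in class 7 (693 rpm) and class 3 (521 rpm), and mature luminal markers in class 2 (1097 rpm) and class 11 (935 rpm). Stromal markers, from cells the sort should leave out, were highest in class 6 at 618 rpm.

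Promoters are the stretches where transcription of a gene starts. In a divergent, or bidirectional, promoter a pair of genes starts head to head on opposite strands, and both starts are served by the same open, nucleosome-poor and usually CpG-rich stretch. Such pairs are common in mammalian genomes and are known to include many genes of DNA repair, the mitochondrion and the core histones, while the promoters of lineage genes are mostly single. In ATAC-seq the Tn5 transposase cuts and tags open DNA, so the number of reads over a promoter measures how open it is, not how much RNA is made from it.

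For the repeated regions that hold a divergent pair, the shared stretch is short enough to read in full. The stretches shown run from the base after the start of the gene on the minus strand to the base before the start of its partner on the plus strand. They are printed 5′ to 3′ on the plus strand, from RefSeq sequences of build GRCm38.p6, the assembly also called mm10 that the deposited coordinates use. Capitals mark the letters of motifs searched on both strands, which in these stretches were GGGCGG (SP), CCGGAAG (ETS), GCCAAT (NF-Y), AAGATGG (YY1) and CACGTG (E-box), and overlapping matches run together. The first 2 hold mitochondrial genes. Hspd1 and Hspe1 encode the mitochondrial chaperonin and its co-chaperonin, and their stretch lies at chr1:55087933-55088147. Atp5j, a subunit of ATP synthase, faces Gabpa, itself a transcription factor of the ETS family, at chr16:84834977-84835123. The next 2 belong to DNA repair and have the closest starts of the 7 shown. Apex1, an endonuclease of base excision repair, faces Osgep at chr14:50924894-50924948, and Mre11a, a nuclease of double-strand break repair, faces Ankrd49 at chr9:14784574-14784653. H2bc7 and H2ac7, genes of a core histone pair, share chr13:23574208-23574380, and Psmb9 and Tap1, genes of antigen processing, share chr17:34187331-34187555. The last stretch is that of the divergent pair with the largest rise in fetal nuclei among the regions named by size, Gm5087 and Synpr, at chr14:13284639-13284779.
Hspd1/Hspe1: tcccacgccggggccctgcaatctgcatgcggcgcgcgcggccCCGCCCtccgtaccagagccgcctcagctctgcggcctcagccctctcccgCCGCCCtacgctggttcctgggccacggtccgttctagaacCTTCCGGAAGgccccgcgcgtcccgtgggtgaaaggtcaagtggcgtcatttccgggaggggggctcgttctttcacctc
Atp5j/Gabpa: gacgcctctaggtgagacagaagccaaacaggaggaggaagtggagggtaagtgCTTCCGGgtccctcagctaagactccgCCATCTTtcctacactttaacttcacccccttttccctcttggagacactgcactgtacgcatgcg
Osgep/Apex1: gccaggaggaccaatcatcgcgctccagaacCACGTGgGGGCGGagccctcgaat
Ankrd49/Mre11a: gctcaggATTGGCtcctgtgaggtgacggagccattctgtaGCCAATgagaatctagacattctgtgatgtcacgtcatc
H2bc7/H2ac7: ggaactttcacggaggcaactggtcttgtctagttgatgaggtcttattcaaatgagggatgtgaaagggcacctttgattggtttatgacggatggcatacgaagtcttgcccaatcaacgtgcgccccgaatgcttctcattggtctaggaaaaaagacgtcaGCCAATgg
Psmb9/Tap1: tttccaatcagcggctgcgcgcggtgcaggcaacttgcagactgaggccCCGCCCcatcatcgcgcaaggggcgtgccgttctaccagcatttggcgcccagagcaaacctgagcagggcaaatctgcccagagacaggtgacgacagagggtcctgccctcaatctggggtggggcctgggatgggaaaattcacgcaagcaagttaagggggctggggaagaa
Gm5087/Synpr: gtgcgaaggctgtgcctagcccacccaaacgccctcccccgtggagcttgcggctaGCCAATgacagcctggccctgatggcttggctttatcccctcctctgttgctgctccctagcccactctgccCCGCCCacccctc

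The first question was whether repeated regions hold the starts of 2 genes. Gene starts were taken from the RefSeq table, which lists 27025 genes, among them 17491 of the 21896 protein-coding genes in the annotation, and no gene of chromosome 18. The 35 repeated regions of chromosome 18 were therefore left out of this count. Of the remaining 1837 repeated regions, 653 (35.5%, exact 95% interval 33.4 to 37.8) held starts of 2 or more genes, against 696 of 16322 regions on 1 line (4.26%, 3.96 to 4.59). The pair was divergent in 583 repeated regions (31.7%) and in 512 regions on 1 line (3.14%). In 55 repeated regions (2.99%) the starts lay on opposite strands but in the overlapping order, and in 15 they lay on the same strand. A further 565 repeated regions (30.8%) held a start of 1 gene and 619 (33.7%) held no listed start. Counting either end of any annotated protein-coding or lncRNA (long non-coding RNA) gene, 821 repeated regions (44.7%) held ends of 2 or more genes. On 1 line 1105 regions (6.77%) did. The intervals cover counting error only, and no test was made across regions.

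**Figure D1:**
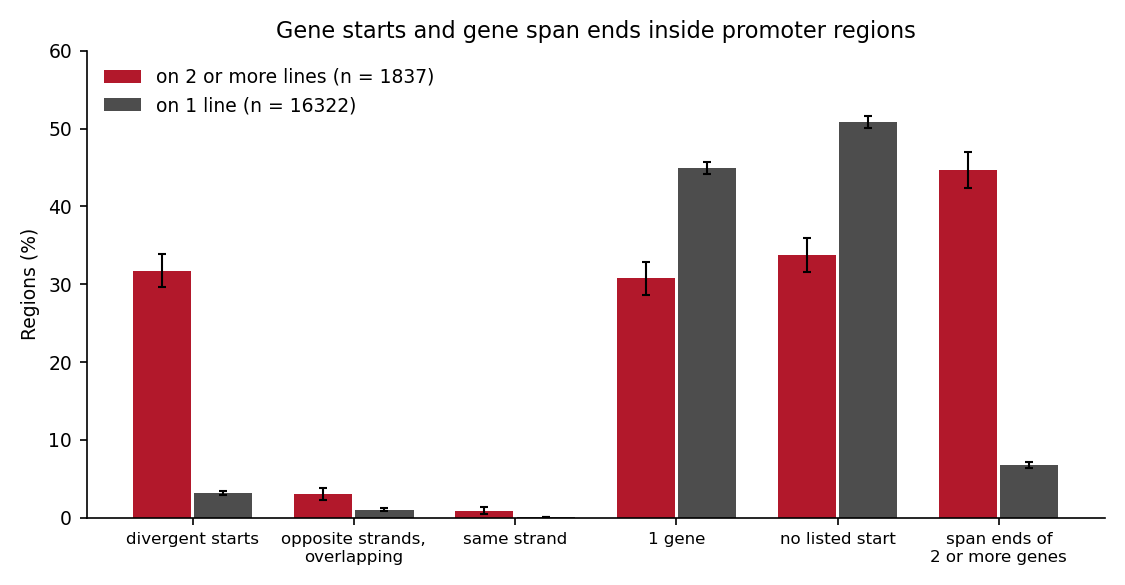
Percent of promoter regions (vertical axis) that hold each arrangement of listed gene starts, and percent that hold span ends of 2 or more genes, for regions on 2 or more lines (red, n = 1837) and on 1 line (grey, n = 16322); error bars are exact 95% intervals. Divergent starts stand at 31.7% against 3.14%, and regions with no listed start at 33.7% against 50.8%.

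What the repeated divergent regions shared was the kind of gene. Both genes were protein-coding in 541 of the 583 (92.8%), and a protein-coding gene faced a long non-coding RNA (lncRNA) in the other 42 (7.20%). In the regions on 1 line the order was turned round: 41 of 512 divergent pairs (8.01%) were both protein-coding, and 469 (91.6%) joined a protein-coding gene to a lncRNA. Read the other way, 541 of all 582 autosomal regions with a divergent protein-coding pair (93.0%) stood on 2 or more lines, against 42 of 511 with a coding and lncRNA pair (8.22%). Regions on more lines held more protein-coding starts nearby, but the numbers did not match region by region. Without added bases, regions on 2 lines held starts of 0, 1 and 2 protein-coding genes in 34.8%, 32.8% and 32.2%. With 1500 bases added on each side, 1008 of 1788 regions on 2 lines (56.4%) held starts of exactly 2 protein-coding genes, and 11994 of 16322 regions on 1 line (73.5%) held exactly 1. Among the 49 regions on 3 or more lines with a start table, 19 (38.8%) held starts of 2 such genes in that window, 15 (30.6%) of 3 or more and 15 of 0 or 1, and none of the 16322 regions on 1 line held 3 or more.

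The starts of a divergent pair lay close together. Their distance had a median of 136 bp in repeated regions (quartiles 70 and 256.5, range 1 to 802) and of 122.5 bp in regions on 1 line. The start of the second nearest gene lay at a median of 1379 bp from the middle of a repeated region, against 24717.5 bp for regions on 1 line. Repeated regions also lay near each other: 772 of the 1872 (41.2%) had another repeated region within 2000 bases, against 237 of the regions on 1 line (1.41%). The share with any listed region that close was alike, 50.1% against 47.6%. Of the 619 repeated regions with no listed start, 395 (63.8%) had a repeated neighbour. By chromosome, the share of repeated regions was lowest on chromosome 6, at 5.39% (53 of 983, exact 95% interval 4.06 to 6.99). It was highest on chromosome 13, at 13.5% (94 of 695, 11.1 to 16.3). Chromosome 12 had nearly the same share, 13.1% (86 of 658, 10.6 to 15.9). Chromosome 13 carries the large histone cluster, whose part in the share was not tested.

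The regions on most lines showed 2 such neighbourhoods. On chromosome 12 the region at chr12:102757294-102758293, on 4 lines, held starts of Gm20604, Gon7 and Ubr7, a ubiquitin ligase gene. It had 134, 112, 137 and 126 CPM in fetal libraries 1 and 2 and adult libraries 1 and 2. CPM are counts per 1000000 reads in all tested promoter regions, scaled by edgeR's TMM factors. Its neighbour at chr12:102758559-102759558, also on 4 lines, held no listed start and had 2.06, 9.36, 7.87 and 7.06 CPM in the same order. Both regions were thus repeated to the same number of lines although the second was far less open in every library. In the histone cluster the region at chr13:23571984-23572983, on 4 lines and 1083 bp from the start of H2bc8, had between 6.83 and 12.2 CPM. The remaining region on 4 lines held the start of H2ac20 on chromosome 3, with 76.1, 77.1, 91.8 and 67.1 CPM, a level of the same order in all libraries.

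Gene lists were read from the listed starts that lay in any autosomal promoter region. Of protein-coding genes in general, 1794 had a start in a repeated region, 18.8% of those with a start in a region. Histone genes stood at 32 of 48 (66.7%), DNA repair and replication genes at 18 of 44 (40.9%) and mitochondrial genes at 55 of 145 (37.9%). Of 12 mammary lineage genes with a start in a promoter region, 0 lay in a repeated region. Of 15 pairs put on a list as textbook divergent pairs, 8 had both starts in 1 repeated region. Among them were Atm, the kinase that signals DNA breaks, with Npat, a coactivator of histone genes, and Fen1, the flap endonuclease of replication, with Tmem258. Others were Paics and Ppat, enzymes of purine synthesis, and Mrps12 and Sars2 of mitochondrial translation. The textbook pairs Col4a1 and Col4a2, chains of basement membrane collagen, and Surf1 and Surf2 fell in the overlapping order, with starts 21 and 122 bp past each other. For the listed pair Acat2 and Tcp1, the start of Tcp1 faced that of Mrpl18, so not every listed pair was divergent here. These lists were chosen with earlier results of these data known, and no test of the lists was made.

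Around the starts, divergent repeated pairs held more CpG and more ETS letters than single starts on 1 line. RefSeq windows of 300 bases, from 250 before to 50 after each start, were used. The ratio of observed to expected CpG had a median of 0.868 at 1348 starts of divergent repeated regions, 0.779 at starts of repeated regions with 1 gene, 0.852 at divergent starts on 1 line and 0.739 at single starts on 1 line, against 0.389 over all 31396 autosomal starts of the table. CCGGAAG, the letters of an ETS site, stood on either strand in 32.3% of windows of divergent repeated pairs, 22.5% of repeated regions with 1 gene, 18.2% of divergent pairs on 1 line and 15.2% of single starts on 1 line. Over all autosomal starts the share was 9.00%. Both stretches with mitochondrial genes printed above hold these letters. The stretches of Gga3 and Mrps7, Mrpl49 and Fau, and Mrps12 and Sars2, also pairs with a mitochondrial gene but not printed, do not hold them. AAGATGG (YY1) stood in 10.2%, 6.79%, 6.89% and 6.27% of windows in the same order, against 6.38% of all. GGGCGG (SP) was common in every kind, at 69.5%, 64.8%, 73.2% and 65.1%, against 36% of all, and GCCAAT (NF-Y) stood in 22.8%, 21.6%, 21.8% and 19.0%, against 14.7% of all. TGAGTCA (AP-1) stood in 2.00%, 3.88%, 2.36% and 4.50% of windows in the same order, TGTTTAC (FOX) in 1.56%, 2.91%, 1.22% and 2.70%, and TATAAA, the letters of the TATA box, in 4.30%, 4.36%, 4.71% and 7.20%. Over all autosomal starts these shares were 5.26%, 3.71% and 13.6%. Windows of a divergent pair overlap each other where starts are close, so a match can count for both genes, and matches are descriptions of letters only.

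Repeated regions were more open than regions on 1 line in each of the 4 libraries. A repeated region received 18.7, 17.0, 19.4 and 17.1 rpm on average in fetal libraries 1 and 2 and adult libraries 1 and 2, and a region on 1 line 12, 11, 12.3 and 11 rpm. The ratio was 1.56, 1.55, 1.58 and 1.55, a mean of 1.56 ± 0.0133 (SD, n = 4 libraries). It was above 1 in 4 of 4 libraries, for which an exact two-sided sign-change permutation test gives p = 0.125, the smallest it can give with 4 libraries. The ratio did not separate the stages, with a fetal minus adult difference of -0.01 on the log2 scale (exact two-sided permutation p = 0.667, where 0.333 is the smallest possible with 2 libraries against 2). As a median over regions the ratio lay between 2.04 and 2.35. Together the repeated regions took 3.39% ± 0.225 (SD, n = 4) of all reads. All but 18 of the 1872 had at least 1 read in fetal library 1, which was the shallowest.

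The level followed the gene layout. Divergent repeated regions received 26.8, 24.3, 27.9 and 24.5 rpm in the 4 libraries (25.9 ± 1.79, SD, n = 4), repeated regions with a start of 1 gene 20.0 ± 1.36 rpm and those with no listed start 8.66 ± 0.513 rpm. On 1 line the same layouts received 21.9 ± 1.45, 15.8 ± 0.969 and 6.93 ± 0.366 rpm. The order of the 3 layouts was the same on both sides, and for each of them the repeated regions lay above those on 1 line in 4 of 4 libraries. Repeated regions with a divergent protein-coding pair stood at 2.23 to 2.30 times the mean region on 1 line.

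Around the starts, the reads formed a peak whose width differed between layouts. Deposited reads were 163 to 200 bases long (median 195) in each library. They were placed by their midpoint around the start, or around the middle of both starts. Widths are thus those of midpoints summed over many sites, not of Tn5 cuts or of 1 open stretch. At the peak, 571 divergent repeated pairs had 1.01 ± 0.0746 rpm per site in a bin of 20 bases (SD, n = 4 libraries), 0.866 ± 0.0608 at divergent pairs on 1 line, and 0.640 ± 0.0362 at 6724 single starts on 1 line. The width was measured where reads reached 50% of the peak. It was 360 bp for divergent repeated pairs in all 4 libraries and 350 ± 20.0 bp for 511 divergent pairs on 1 line. Single starts had 315 ± 25.2 bp in repeated regions and 295 ± 10.0 bp on 1 line. For divergent repeated pairs the width grew with the distance between the starts. It was 260 ± 16.3 bp where starts lay up to 150 bp apart (311 pairs) and 360 bp at over 150 and up to 300 bp (161 pairs). Above 300 bp (99 pairs) it was 525 ± 19.1 bp, and the peak lay 110 to 130 bp right of the middle in all 4 libraries. Divergent repeated pairs had 0.965 ± 0.00455 reads left of the middle for each read on the right, but 0.869 ± 0.0124 where starts lay over 300 bp apart. Single starts, turned so that the gene runs to the right, had a ratio of 1.10 ± 0.0365 on 1 line and 1.27 ± 0.0425 in 513 repeated regions, that is, more reads before the start than after it.

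**Figure D2:**
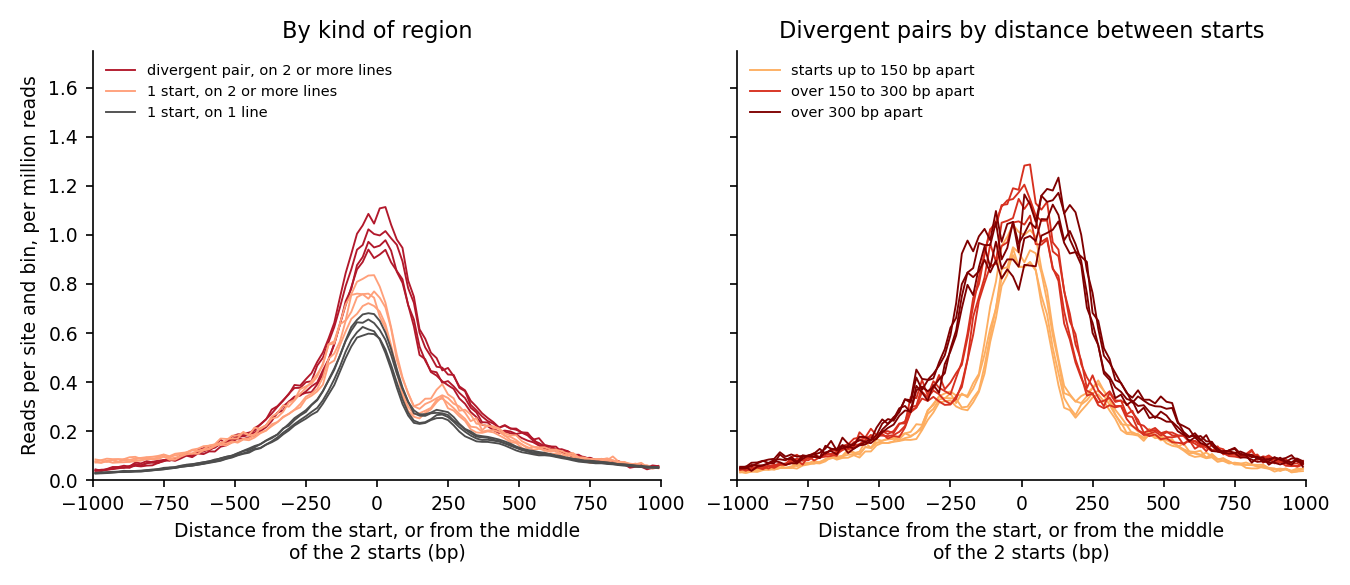
Reads per site and 20-base bin, in rpm (vertical axis), by distance in bp from the single start or from the middle of both starts (horizontal axis), with 1 line for each of the 4 libraries. Left, divergent pairs on 2 or more lines (red) peak at a mean of 1.01, single starts on 2 or more lines (light orange) at 0.772 and single starts on 1 line (grey) at 0.640; right, the width at 50% of the peak grows from 260 to 525 bp as the starts lie farther apart.

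Across the deposited classes the ratio changed little. In the 26 pairs of class and library with at least 50 nuclei, which hold 7661 of the 7846 nuclei, the mean read level of repeated regions over regions on 1 line ran from 1.46 to 1.66. It was lowest in class 8 (1.48 and 1.47 in adult libraries 1 and 2), class 3 (1.46 and 1.5) and class 11 (1.49 and 1.48), and highest in class 2 (1.66 and 1.62). The level itself varied more, from 13.5 rpm per repeated region in class 8 to 21.5 rpm in class 7, and the level of regions on 1 line moved with it, from 9.12 to 13.4 rpm. The share of reads in promoter regions moved likewise, from 18.2% in class 8 to 27.0% in class 7, and its part in the level was not tested. Classes with basal markers (1 and 8) lay on both sides of the range of levels, as did those with luminal progenitor markers (3 and 7). In the fetal classes 4, 5, 9 and 12 the mean ratio was 1.53 to 1.57, and in class 6, the class with stromal markers, it was 1.61.

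**Figure D3:**
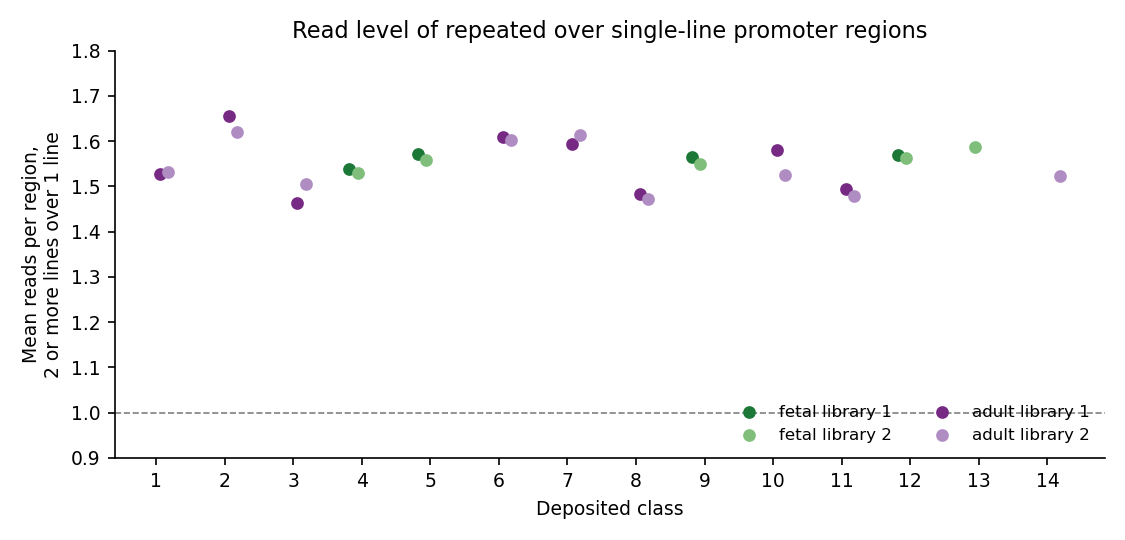
Mean reads per region on 2 or more lines divided by mean reads per region on 1 line (vertical axis) in each deposited class (horizontal axis); 1 point is 1 library with at least 50 nuclei in the class, green for fetal and purple for adult. All 26 points lie between 1.46 and 1.66, above the dashed line at equality.

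Between fetal and adult nuclei, the share of repeated regions that differed was below that of promoter regions in general. With edgeR's quasi-likelihood test on library sums and Benjamini-Hochberg adjustment over all tested promoter regions, 276 of 1838 tested repeated regions (15.0%) differed at an adjusted p under 0.05, against a background of 21.5% of all promoter regions tested and 3626 of 16178 (22.4%) of those on 1 line. Of the 276, 120 were more open in fetal and 156 in adult nuclei, a balance that turned to 145 and 137 when libraries were scaled by total reads. Over all promoter regions the shares by direction were 10.5% (higher in fetal) and 11% (higher in adult). As a median, the size of the log2 difference was 0.22 in repeated regions and 0.34 in regions on 1 line. The lower share was not tested, but it was seen at each read level: with all regions split by mean read count into 4 groups of equal size, from lowest to highest, 15.3%, 19.9%, 16.8% and 12.2% of repeated regions were called, against 18%, 29.4%, 21.7% and 19.6% of regions on 1 line. By layout, the share was 9.61% for repeated regions with a divergent protein-coding pair (52 of 541), 23.8% for those with a coding and lncRNA pair (10 of 42), 16.5% for 1 gene and 17.5% for no listed start. On 1 line the shares were 9.76% for divergent protein-coding pairs (4 of 41), 20.7% for coding and lncRNA pairs, 21.2% for 1 gene and 23.7% for no listed start. The share in repeated regions was thus below that on 1 line for 1 gene and no listed start, close to it for coding pairs and above it for coding and lncRNA pairs, as it was for overlapping starts (20.0% against 17.1%). Leaving out a library lowered the count, to 157 without fetal library 2 and 175 without adult library 2, and DESeq2 gave 172. The p-values measure the spread between 2 libraries per stage.

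**Figure D4:**
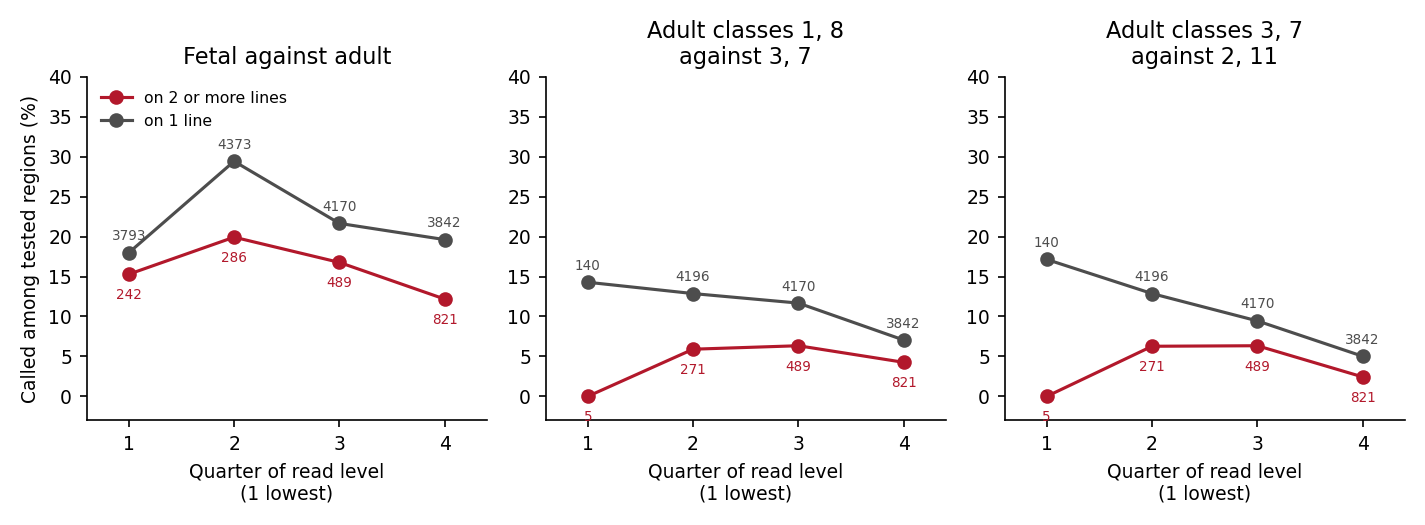
Percent of tested regions with an edgeR adjusted p under 0.05 (vertical axis) by read level (horizontal axis, 4 groups of equal size, 1 lowest), for regions on 2 or more lines (red) and on 1 line (grey) in 3 comparisons; small numbers are the regions tested, 5 at the lowest level of both class panels. In every group of every panel the red point lies below the grey one, and for fetal against adult the smallest gap is 15.3% against 18%.

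Of the 20 repeated regions named for their stage difference, 13 had no listed start, 3 held a start of 1 gene, 2 held divergent pairs and 2 lay on chromosome 18. Regions without a listed start made up 588 of the 1838 tested and 103 of the 276 called. They had few reads, with a median of 47 per library against 321 for divergent repeated regions, and a median size of the log2 difference of 0.37 in repeated regions and 0.48 on 1 line. The rule took the 10 largest called changes in each direction whose stages did not overlap, counting regions that averaged 50 or more reads in a library. Among those higher in fetal nuclei, the divergent pair of Gm5087, a lncRNA gene, and Synpr, which encodes a synaptic vesicle protein, had 26.7 and 38.9 CPM in the fetal libraries against 4.85 and 4.95 in the adult ones. That was a log2 difference of 2.77 ± 0.35 (SE; edgeR adjusted p = 7.4e-09). Both fetal libraries lay far above both adult ones. The region at chr10:80856384-80857383, 1608 bp from the start of Sppl2b, a gene for an intramembrane protease, followed with 31.5 and 29.8 against 6.66 and 7.06 CPM. The region at chr1:171248252-171249251, far from the nearest listed start (Fcer1g, 14402 bp), had 53.5 and 61.8 against 13.0 and 14.8 CPM. A region at the span ends of Fn1, which encodes fibronectin, and the lncRNA gene Apol7d had 83.6 and 70.9 against 19.1 and 30.8 CPM, a log2 difference of 1.59 ± 0.21. The other divergent pair, Gm39633 and Gpr45, an orphan receptor gene, had 24.7 and 25.2 against 8.18 and 13.0 CPM, but was not called without fetal library 2 or without adult library 1. A region near Galntl6, a glycosyltransferase family gene, had 21.3 and 33.8 against 5.15 and 12.5 CPM. Its log2 difference of 1.65 was 2.45 without adult library 2, and it was not called without fetal library 2.

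Among the regions higher in adult nuclei, a pair was nearly closed in fetal nuclei. The region at chr2:25235100-25236099, 1188 bp from the start of Rnf224, had 1 and 3 fetal reads and 132 and 174 adult reads in the 2 libraries of each stage. Its adult level was 50.5 times the fetal one, with a counting interval from 19.5 to 187. The fitted log2 difference moved from -5.59 to -7.31 when reads were placed by midpoint. The region at chr9:96893273-96894272, 3334 bp from the start of Gm51657, had 2 and 4 fetal against 160 and 225 adult reads, a ratio of 42.4 (counting interval 19.3 to 116). In both, each adult library held many times the reads of either fetal library. Within the adult libraries these reads lay in classes 2 and 11, the classes with mature luminal markers: the region near Rnf224 had 88.9 and 95.3 CPM there, 1.74 and 1.70 in classes 3 and 7 and no read in classes 1 and 8. The region near Gm51657 had 106 and 119 CPM in classes 2 and 11, 2.61 and 1.70 in classes 3 and 7, and 0 and 2.40 in classes 1 and 8. Atg9b and the region near Phospho2 were also highest in classes 2 and 11, at 58.8 and 76.5 and at 58.8 and 65.3 CPM. Fetal and adult libraries differ in which classes they hold, and the part of this in the stage differences was not tested. A region 1638 bp from the start of Vsig10 had 11.0 and 12.8 CPM in fetal and 101 and 74.4 CPM in adult libraries (log2 difference -2.84 ± 0.24). Fetal libraries differed between themselves in the region near Phospho2, with 2 and 27 reads, against 116 and 146 adult reads, and its log2 difference of -2.65 was -4.62 without fetal library 2. Of regions with a listed start, that of Atg9b, an autophagy gene, had 9.60 and 7.94 against 30.9 and 38.9 CPM, that of Btbd19 30.8 and 21.6 against 83.3 and 92.1 CPM, and that of Tspan4, a tetraspanin gene, 40.4 and 30.3 against 99.3 and 99.8 CPM. No library of 1 stage overlapped the other stage in these regions, as the rule required.

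**Figure D5:**
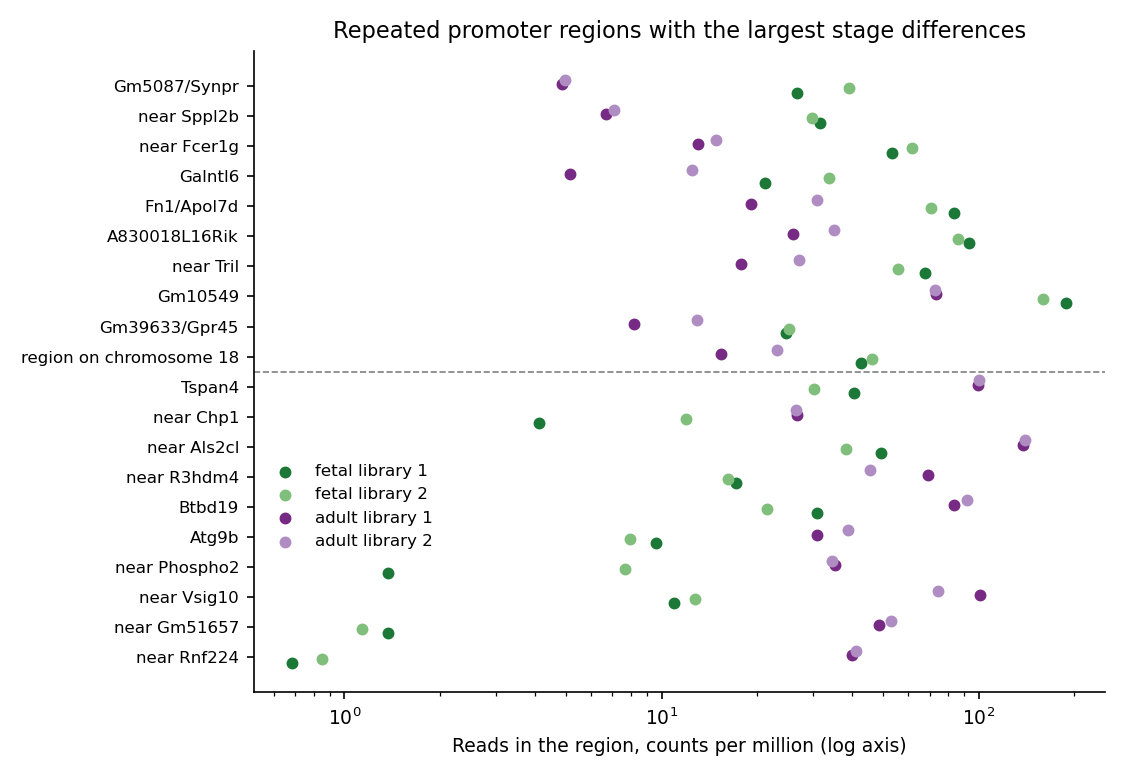
Reads per region in CPM (horizontal log axis) in fetal libraries (green) and adult libraries (purple) for the 20 repeated regions with the largest stage differences, higher in fetal above the dashed line and higher in adult below it. The regions near Rnf224 and Gm51657 lie near 1 CPM in fetal libraries and between 40.0 and 53.0 CPM in adult ones.

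The 5 repeated regions with the highest levels were not called between stages. They belong to the highest of the 4 read levels, where 12.2% of repeated regions and 19.6% of those on 1 line were called. The pair of Srgap2 and Fam72a had 399, 389, 342 and 346 CPM in fetal libraries 1 and 2 and adult libraries 1 and 2. The pair of Ggps1, the geranylgeranyl diphosphate synthase, and Arid4b, a chromatin protein, had 372, 371, 395 and 385 CPM, and that of Aasdhppt and Kbtbd3 360, 328, 343 and 345 CPM. The regions at the span ends of Cdca2 and Kctd9 and of Nudcd1 and Eny2 completed the highest 5. In them edgeR's adjusted p lay between 0.16 and 0.98, which does not show that the levels were equal. Of the textbook pairs, Hspd1 and Hspe1 had 191, 173, 192 and 215 CPM and Atm and Npat 171, 183, 220 and 190 CPM, and neither was called. The pair Col4a1 and Col4a2 was higher in fetal nuclei, with 73.4 and 79.7 against 32.4 and 37.0 CPM (log2 difference 1.14 ± 0.19, edgeR adjusted p = 4.0e-06).

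In the gene lists, the called histone regions all went one way. Of 26 repeated regions with a histone start, 6 (23.1%) were higher in fetal nuclei and 0 higher in adult. Over all promoter regions these shares were 10.5% and 11%, and over repeated regions 6.53% and 8.49%. The share called in either direction was near the 21.5% of all promoter regions and above the 15.0% of repeated regions. The list had a median log2 difference of 0.18, against -0.0022 over all promoter regions. H3c2 had 45.2 and 51.1 CPM in fetal and 23.3 and 19.8 in adult libraries, a log2 difference of 1.18. H1f10, a linker histone gene paired with Gm5577, had 52.8 and 49.4 against 24.5 and 27.8 CPM, and the divergent pair of H2bc7 and H2ac7 97.3 and 80.0 against 62.1 and 53.5 CPM. Of the called histone regions, all but that of H1f10 lay on chromosome 13. Those of H2ac10 (chr13:23533228-23534227) and H3c8 (chr13:23534691-23535690) are neighbours there, so the shared direction need not come from independent regions. Genes of the same histone type resemble each other in sequence. How the authors' mapping placed reads among them is not given in the sources used here. Of 53 regions with a mitochondrial gene, 4 were higher in adult and 1 in fetal nuclei, with a median of -0.06. The share called, 9.43%, was under the 21.5% of all promoter regions and the 15.0% of repeated regions. It was near the 9.61% of repeated regions with a divergent protein-coding pair. Atp5j and Gabpa had 151 and 148 CPM in fetal and 225 and 224 CPM in adult libraries, and Mrpl49 and Fau, a ribosomal protein gene, was the one higher in fetal nuclei (79.5 and 64.7 against 53.0 and 48.0 CPM). Of 19 regions with a DNA repair or replication gene, 3 were called (15.8%): that of Rad54l, a recombination gene, was higher in fetal nuclei (41.8 and 55.6 against 21.2 and 32.7 CPM), and those of Atr, a checkpoint kinase, and Apex1 were higher in adult nuclei, with log2 differences of -0.58 and -0.44. The median of that list was -0.09.

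Classes were compared by number within the adult libraries, in 1 edgeR fit over sums of reads per library and class with the library as a term. The class numbers are the authors' clusters of these same nuclei. Where the clustering used the same reads, it shapes the differences between classes, for which the p-values of the class comparisons do not allow. The part of this in the calls was not tested. Between classes 1 and 8 and classes 3 and 7, 82 of 1586 tested repeated regions (5.17%) were called, 35 higher in classes 1 and 8 and 47 higher in classes 3 and 7. The background over all promoter regions was 9.9%, with 5.19% higher in classes 1 and 8 and 4.71% higher in classes 3 and 7, and 10.7% of regions on 1 line were called. Col4a1 and Col4a2 stood out as a gene pair, with 135 and 109 CPM in classes 1 and 8 of adult libraries 1 and 2 against 26.1 and 21.2 in classes 3 and 7 (log2 difference 2.36 ± 0.34). In the fetal classes 4 and 9, whose basal marker reads were 539 and 367 rpm, the pair had 131 and 124 against 71.3 and 61.9 CPM, a difference that was not called (edgeR adjusted p = 0.15). Naming by size required sums that averaged 50 reads or more, and some called regions under that limit had larger differences, among them the region near R3hdm4, with 101 and 84.9 CPM in classes 3 and 7 against 22.4 and 10.8 in classes 1 and 8 (log2 difference -2.59 ± 0.44, edgeR adjusted p = 2.8e-06). Past that limit, the regions higher in classes 3 and 7 included the region near Als2cl, with 174 and 175 against 42.0 and 49.2 CPM (log2 difference -1.92 ± 0.27), that of Basp1, a membrane-associated protein gene, with 94.8 and 100.1 against 22.4 and 36 CPM, and the divergent pair of Lrrc63 and Lcp1, an actin-bundling protein gene, with 107 and 90.8 against 25.2 and 32.4 CPM. Higher in classes 1 and 8 were the region of Shkbp1, with 61.7 and 91.2 against 38.3 and 33.9 CPM, and that of Ampd2, an AMP deaminase gene, and Gm12500, with 135 and 107 against 57.4 and 60.3 CPM. With 1 adult library left out the calls fell to 11 without adult library 1 and 14 without adult library 2, and to 22 with DESeq2 (12 higher in classes 1 and 8). Of the 10 regions named by size in this comparison only the one near Als2cl kept its call in every alternative run.

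Between classes 3 and 7 and classes 2 and 11, 68 of 1586 repeated regions (4.29%) were called, 39 higher in classes 3 and 7 and 29 higher in classes 2 and 11. The background was 8.59%, with 5.16% higher in classes 3 and 7 and 3.43% higher in classes 2 and 11, and 9.32% of regions on 1 line were called. Among regions that averaged 50 or more reads per sum, the limit for naming by size, the largest difference was in the region at chr19:46339222-46340221, 1061 bp from the start of Cuedc2, with 103 and 81.5 CPM in classes 3 and 7 and 2.94 and 4.12 in classes 2 and 11 (log2 difference 4.62 ± 0.40, edgeR adjusted p = 6.9e-19). It was open in classes 1 and 8 as well, at 81.3 and 78.0 CPM, so that only classes 2 and 11 of the 3 adult groups were low. Hs3st3a1, a gene for a heparan sulfate sulfotransferase, had 134 and 121 against 29.4 and 25.9 CPM, and the region near Noxo1, which encodes an organiser of NADPH oxidase, 116 and 104 against 31.6 and 34.1 CPM. These 3 kept their calls in every alternative run. Flrt3, a gene for a cell-surface adhesion protein, had 122 and 117 against 29.4 and 60.6 CPM, a log2 difference of 1.43 that was 2.05 without adult library 2 and not called without adult library 1. The largest rises in classes 2 and 11 lay below that limit, in regions named above for their stage difference: the log2 difference was -5.64 near Rnf224 (edgeR adjusted p = 1.1e-11), -5.63 near Gm51657 (1.3e-14), -2.49 at Atg9b (7.4e-05) and -1.92 near Phospho2 (0.0063). Also higher in classes 2 and 11 were the divergent pair of Zfp661 and Mrps5, a mitochondrial ribosome gene, with 121 and 116 against 43.5 and 35.6 CPM, and 3 of the 26 histone regions (11.5%, against the background of 8.59%), those of H4c9, H3c3 and H2ac20, with log2 differences of -1.16, -0.83 and -1.03. The median of the histone list was -0.22. The calls fell to 8 without adult library 1, 11 without adult library 2 and 20 with DESeq2.

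Between fetal classes 4 and 9, 5 of 1586 repeated regions (0.315%) were called, 2 higher in class 4 and 3 higher in class 9, against a background of 0.704% (0.321% higher in class 4 and 0.384% higher in class 9). At an unadjusted p under 0.05 there were 167 of the 1586 in edgeR, beside 1424 of 12348 regions on 1 line. For the alternative runs given below, such counts stand without a background. The region near Als2cl had 15.1 and 18.9 CPM in class 4 and 89.1 and 57.1 in class 9, the same direction as between adult classes 1 and 8 and classes 3 and 7. The region near Afmid, 1466 bp from its start, had 30.2 and 20.6 against 98.0 and 87.7 CPM, and that of E030011O05Rik 0 and 29.2 against 66.8 and 74.8 CPM. Higher in class 4 was the region at the span ends of Mterf3 and Ptdss1, with 297 and 205 against 128 and 140 CPM. The fifth called region, at chr14:34375835-34376834, was higher in class 4 by 1.93 ± 0.46 on the log2 scale and fell outside the rule on size, with a mean of 27.9 reads; it was named after its values were seen. The 5 calls fell to 0 with DESeq2 (71 at an unadjusted p under 0.05), to 0 without fetal library 1 (107) and to 3 without fetal library 2.

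Cicero scores, which the authors deposited once over all nuclei, give the co-accessibility of pairs of regions up to 500877 bases apart and carry no replicate. Repeated regions were in a median of 85 pairs and regions on 1 line in 83. The best score of a region had a median of 0.133 in repeated regions and 0.114 in those on 1 line, and 304 of 1872 repeated regions (16.2%) had a partner at a score of 0.25 or more, against 2490 of 16763 (14.9%). By kind of partner, a distal region was a partner of 164 repeated regions (8.76%, exact 95% interval 7.52 to 10.1) and of 1683 regions on 1 line (10.0%, 9.59 to 10.5), and another promoter region of 213 (11.4%, 9.97 to 12.9) and 1375 (8.20%, 7.79 to 8.63). At the 4 read levels, from lowest to highest, 1.81%, 11.5%, 12.9% and 24.7% of repeated regions had any such partner. On 1 line the shares were 4.41%, 15.5%, 16.7% and 24.0%, so repeated regions lay above them in the highest level alone. In that level a distal partner was found for 11.6% of repeated regions and 13.6% of those on 1 line. A promoter partner was found there for 19.6% (exact 95% interval 16.9 to 22.5) and 17.2% (16.0 to 18.4). From the lowest level up, the other levels had a promoter partner for 0.362%, 4.90% and 7.57% of repeated regions. On 1 line these shares were 2.06%, 6.77% and 7.87%. Divergent repeated regions had a distal partner in 6.52% and a promoter partner in 13.6%. Of 404 pairs of repeated regions within 2000 bases, 11 (2.72%) reached 0.25, against 238 of 4188 such pairs of regions on 1 line (5.68%), although their median score was the higher one, 0.0141 against 0.00867. Of pairs farther apart, 44 of 1813 between repeated regions (2.43%) and 765 of 100779 between regions on 1 line (0.759%) reached 0.25.

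The few repeated regions with most partners at 0.25 had either mostly distal or mostly promoter partners. The region near Gm51657 had 17 partners, 16 of them distal, with a best score of 0.581. The Col4a1 and Col4a2 region had 16, of which 15 were distal, and the region near Vsig10 had 11, all distal. These 3 were called between fetal and adult nuclei, as were 15.0% of tested repeated regions and 21.5% of all tested promoter regions. The share called among regions with many partners is not given here. The region near Cebpb, a transcription factor gene, also had 11, all distal, and was not called between stages (edgeR adjusted p = 0.091). The region of Mob3a had 14 partners, 3 of them distal, and the region near Jund, a gene of the AP-1 family, had 14, of which 2 were distal. The levels of these were high in all libraries, 258, 227, 244 and 224 CPM for Mob3a and 247, 238, 280 and 232 CPM near Jund. The scores were made from the same reads over both stages and all classes, so a region that differs between them can score with others that differ in the same way, and the part of this in the partners was not tested.

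The deposited gene accessibility score, a pooled table of 11327 genes in 7846 nuclei whose columns name no sample, was read for both genes of each divergent pair. Of 571 pairs in repeated regions with 2 genes, both were scored in 228, 1 in 293 and neither in 50. Of 511 pairs on 1 line, both were scored in 19. In 110 of the 228 pairs the mean scores of both genes were over 10-fold apart, as in 4 of the 19 pairs on 1 line. With the genes of each pair ordered by their share of nuclei above 0, which fixes the direction, the medians were 9.94% and 0.95% in repeated regions and 10.8% and 3.52% on 1 line. Hspe1 scored above 0 in 14.4% of nuclei and Hspd1 in 1.27%, Ggps1 in 24.3% and Arid4b in 1.21%, Atp5j in 14.1% and Gabpa in 2.19%, and Psmb9 in 8.51% and Tap1 in 1.67%. How the score assigned a shared region to its genes is not given in the sources used here.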

How the data were processed

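Nuclei of 2 fetal and 2 adult libraries were profiled by single-nucleus ATAC-seq. The submitters' processing notes name Bowtie2, MACS2, bedtools and the mm10 build without versions, roles or order. The authors deposited reads with barcodes, the barcodes kept as nuclei, regions, a count of reads per nucleus with its class, and Cicero co-accessibility and gene scores pooled over libraries. Aligner settings, duplicate removal and peak calling per library or pool are not given in the sources used here.

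Reads of kept nuclei that overlapped each distinct promoter region were summed per library, or per library and class, with Python 3.11.15. Regions that averaged 10 or more reads were tested with edgeR 4.0.16 (TMM, glmQLFTest, R 4.3.3) and Benjamini-Hochberg adjustment over all tested promoter regions at 0.05, checked on simulated data, where 52% of 2-fold and 100% of 4-fold changes between stages were recovered. SE was the absolute log2 difference divided by the square root of F. Of the 1872 repeated regions, 1838 passed this filter between stages and 1586 between classes. RefSeq tables of GRCm38.p6 gave gene starts and sequences. Intervals cover counting error only. The rule for the members uses line counts alone, but both the members and the lists were chosen with earlier results of these data known. Named regions were the 10 largest called changes in each direction between stages without overlap and the 5 largest between classes, with a mean of at least 50 reads, the 5 with most lines, highest level or most partners, textbook pairs, and called regions of the gene lists. Alternatives were DESeq2 1.42.0, other scalings, filters and read assignment, every barcode, a replicate block and left-out libraries. Labels give no shared litter, batch or day for equal replicate numbers.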

Additional observations from a re-analysis of the deposited data

How the results depend on the processing

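The count of repeated regions called between fetal and adult nuclei was 276 with edgeR, 172 with DESeq2 and 157 to 217 with 1 library left out, lowest without fetal replicate 2 (157) and adult replicate 2 (175). Between adult classes 1 and 8 and classes 3 and 7, the 82 calls became 22 with DESeq2, 33 with a mean of at least 50 reads, and 11 to 104 with 1 library left out (11 without adult replicate 1, 14 without adult replicate 2). Between classes 3 and 7 and classes 2 and 11, the 68 calls became 20, 24 and 8 to 81 in the same order (8 without adult replicate 1, 11 without adult replicate 2). Between fetal classes 4 and 9, the 5 calls became 0 with DESeq2, 8 with reads placed by midpoint, and 0 to 5 with 1 library left out (0 without fetal replicate 1, 3 without fetal replicate 2). Leaving out a library of a stage leaves 1 sample in its arm, or in both arms of its class comparisons, assumed to vary like the other groups in the fit. Beyond that, the cause of these changes was not tested. Shares over all promoter regions are not given for the alternative runs. The counts therefore do not show whether the share of repeated regions stayed below the background in them. Of the values recomputed for single named regions, 451 kept direction and call, 53 lost the call and none changed direction.

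With the replicate number as a block, 318 repeated regions were called between stages. The deviations of fetal and adult library 1 correlated at 0.0703. Since the labels name no shared litter, batch or day, the equal numbers were not taken as pairs. The class comparisons held the library as a term, and without this replicate block they gave 88, 67 and 7 calls.

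The level ratio of 1.56 was 2.17 as a ratio of medians. The stage difference of the ratio, -0.01 on the log2 scale, ran from -0.0226 to 0.0020 with 1 library left out and changed sign without adult replicate 1 (0.0020). The share of repeated regions with starts of 2 or more genes, 35.5%, became 43.2% with 500 and 52.1% with 1000 bases added on each side, 32.5% for protein-coding genes only and 40.8% for regions on 3 or more lines. The share with a Cicero partner, 16.2% at 0.25, was 64.7% at 0.1, 0.214% at 0.5 and 8.76% for distal partners only. Promoter regions did not overlap each other, so leaving out overlapping regions gave the same set. In simulated data, 35% of 2-fold and 97% of 4-fold changes were recovered between fetal classes 4 and 9, and 49% and 100% between adult classes 1 and 8 and classes 3 and 7. False calls numbered 3 among 14157 regions in the fetal comparison and 15 among 14177 in the adult one. The simulated counts had a fixed spread for all regions, which need not match that of the real libraries.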
